A study of Oryza sativa with 3 samples.

Results

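Gene expression in the node of rice was compared with that in the leaf blade, gene by gene, across the description families that the deposited gene tables give. The tables held 57637 rows for node and 57615 for leaf blade, of which 52101 genes had a single identifier found once in each. Of these, 20062 genes reached 1 FPKM in node or leaf blade and were compared, and the other 32039 were below that level in both. FPKM is the number of sequenced fragments of a gene scaled to transcript length and to library size. Levels can thus be set side by side between genes and between tissues, although each is relative to the rest of its own library. Oryza sativa plants had been grown at 29 °C with 12 h of light of about 80000 lux a day in a greenhouse or plant chamber. Total RNA from mature leaf blade, from nodes I and II and from stem was sequenced with paired ends, 1 library for each of 3 tissues. The labels name no cultivar, age, treatment or number of plants for any of the 3 groups, and do not say whether nodes I and II were pooled. With 1 library a tissue there is no replicate check, no difference below has a p-value, and every value describes these libraries.

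The node is the disc of a grass stem at which a leaf and, in lower nodes, a tiller bud are attached, and in which the vascular bundles that enter the leaf meet those that run on towards the panicle. It holds xylem and phloem transfer cells, thick-walled fibres and a growing zone at the foot of the internode above, and is known as the place where minerals are passed from one bundle to another. The leaf blade is mostly mesophyll, with an epidermis that carries stomata and bulliform cells, and makes the sugar that the rest of the plant imports. Bulk RNA cannot tell fewer cells of a type from less RNA per cell, and this applies to each difference given here.

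A difference is given as log2((node FPKM + 1)/(leaf blade FPKM + 1)), so positive values mean a higher level in node, and the added 1 FPKM makes the difference of a low gene smaller than its plain ratio. A gene was counted as higher or lower in node when this value was at least 2 or at most -2, which is a 4-fold difference on that scale. Ranges in parentheses after a level are the deposited intervals, which are read here as counting error within 1 library and do not cover variation between plants. Where a level was listed at 0 no ratio is given, since a 0 in such a table can also be an estimate that failed.

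The tissue labels were checked against marker genes. All 5 leaf mesophyll markers, which are small subunits of ribulose bisphosphate carboxylase and chlorophyll a-b binding proteins, were lower in node, with a summed level of 588 FPKM in node that compares with 8750 in leaf blade and 4809 in stem. The 4 sclerenchyma and xylem markers, CESA4, CESA7, CESA9 and a COBRA-like protein, were all higher in node, at a sum of 59.3 FPKM where leaf blade had 0.379 and stem 80. Of 6 markers of shoot meristem and axillary bud, 5 had a single row and 3 were compared; 2 of these, both homeobox genes, were higher in node, LOC_Os03g51690 at 131 FPKM in node compared with 0.192 in leaf blade and 19.6 in stem and LOC_Os07g03770 at 145 FPKM in node compared with 0.284 in leaf blade and 411 in stem, while the helix-loop-helix gene LOC_Os01g61480, needed for axillary meristems, was listed at 0 in both node and leaf blade. Tissue of the panicle, which lies above node I, was looked for with 10 MADS-box genes of floral organs. These summed to 98.4 FPKM in node, 22.2 in leaf blade and 40.3 in stem; 3 were listed at 0 in node and 3 in leaf blade, and OsMADS16 (LOC_Os06g49840) alone made up most of the sum, at 91.3 FPKM in node compared with 8.93 in leaf blade and 38 in stem. OsMADS1 (LOC_Os03g11614) was lower in node, with 0.391 FPKM in node compared with 11.7 in leaf blade and 0.457 in stem. The 4 root markers summed to 43.8 FPKM in node, 13.5 in leaf blade and 8.06 in stem, mostly from the silicon channel gene LOC_Os02g51110, which had 38.5 FPKM in node compared with 11.6 in leaf blade and 8.06 in stem and lay within 4-fold. Of the others 2 were listed at 0 in node, among them the iron transporter gene LOC_Os03g46470 with 1.83 FPKM in leaf blade and a locus that overlaps another row, and 1 was higher in node, namely LTPL112 (LOC_Os02g44310), which had 5.37 FPKM in node compared with 0.0335 in leaf blade, and was listed at 0 in stem. The 2 anther genes that were compared lay within 4-fold. The part of these other tissues in the differences below was not tested.

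If read as counting error alone, which is an assumption, the deposited intervals correspond to about 39960000 fragments on genes for node, 39880000 for leaf blade and 43160000 for stem. At 10 FPKM or more the median size of the intervals to either side of the value was 5.12% in node and 5.04% in leaf blade. On that reading, counting error was small beside a 4-fold difference for all but the lowest genes. Rows that join several gene identifiers held 8.21% of the summed FPKM in node and 9.38% in leaf blade, rows without an identifier 6.44% and 4.15%, and neither kind entered the comparison. Of the compared genes, 2680 (13.4%) overlapped another row with signal, and as the sources used here do not say whether strand was kept, reads of such genes may belong to their neighbour.

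Across the 20062 genes, 2517 (12.5%) were higher in node and 1497 (7.46%) lower, 20% in either direction, and the median difference was 0.13. The deposited intervals of the tissues did not overlap for 2508 of the higher and 1487 of the lower genes. Node reached 1 FPKM for 18371 genes and leaf blade for 16884; 3178 reached it only in node and 1691 only in leaf blade. Among the higher genes 386 were listed at 0 in leaf blade, and among the lower ones 226 were listed at 0 in node. These shares are the background against which each family below is given, and a family's count is read beside them rather than tested.

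**Figure D1:**
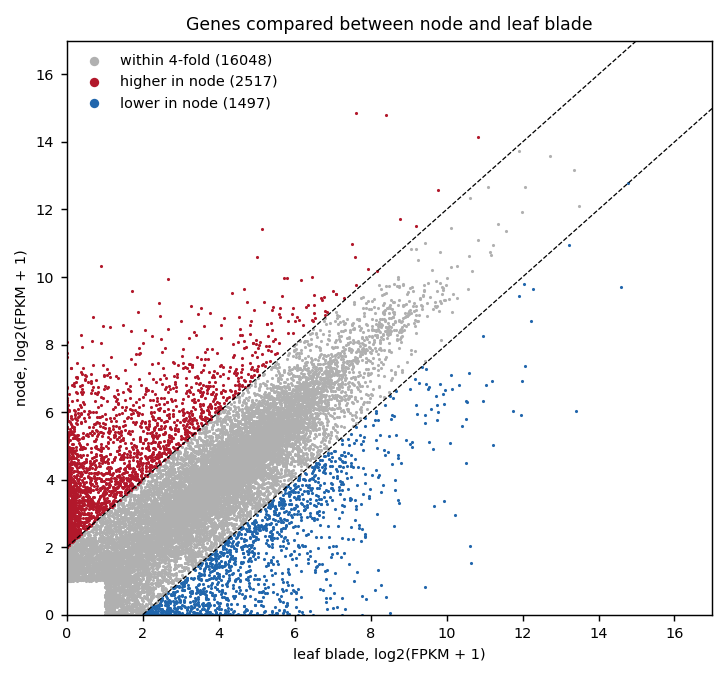
Level of each of the 20062 compared genes in leaf blade (x axis) and node (y axis), both as log2(FPKM + 1), 1 library each. Dashed lines mark a 4-fold difference; 2517 genes lie above them and 1497 below, and of the 78 genes at 1000 FPKM or more in either tissue, 15 lie above and 30 below.

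The balance between the directions shifted with abundance. Among 8009 genes whose higher level was 1 to 10 FPKM, 9.84% were higher in node and 4.56% lower, and among 10305 genes at 10 to 100 FPKM these shares were 13.7% and 8.38%. At 100 to 1000 FPKM, with 1670 genes, they were 18% and 14.3%. Of the 78 genes at 1000 FPKM or more, 15 were higher in node and 30 lower, which is 19.2% and 38.5%. Genes higher in node thus outnumbered lower ones in each range but the last.

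The stem library gives 1 further value for most of these genes. For 1838 of the 2472 higher genes with a stem value the stem lay between leaf blade and node, for 324 it was at or above both and for 310 at or below both. Of the 1466 lower genes with a stem value, stem lay between for 922, above both for 46 and below both for 498.

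Genes were grouped into 122 description families. In 81 families at least 1 gene was higher in node and at least 1 lower; 29 had higher genes only, 10 had lower genes only, and in 2, the DNA replication proteins and the proteasome subunits, every compared gene lay within 4-fold. The median of 90 of the 122 families was above the all-gene median. Some families were added or corrected after values had been seen, so counts of families depend on which were chosen and do not describe all genes. Only members that reached 1 FPKM enter these counts, so a silent member is in none of them, and a member that reached this level in 1 tissue alone could differ in only 1 direction.

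**Figure D2:**
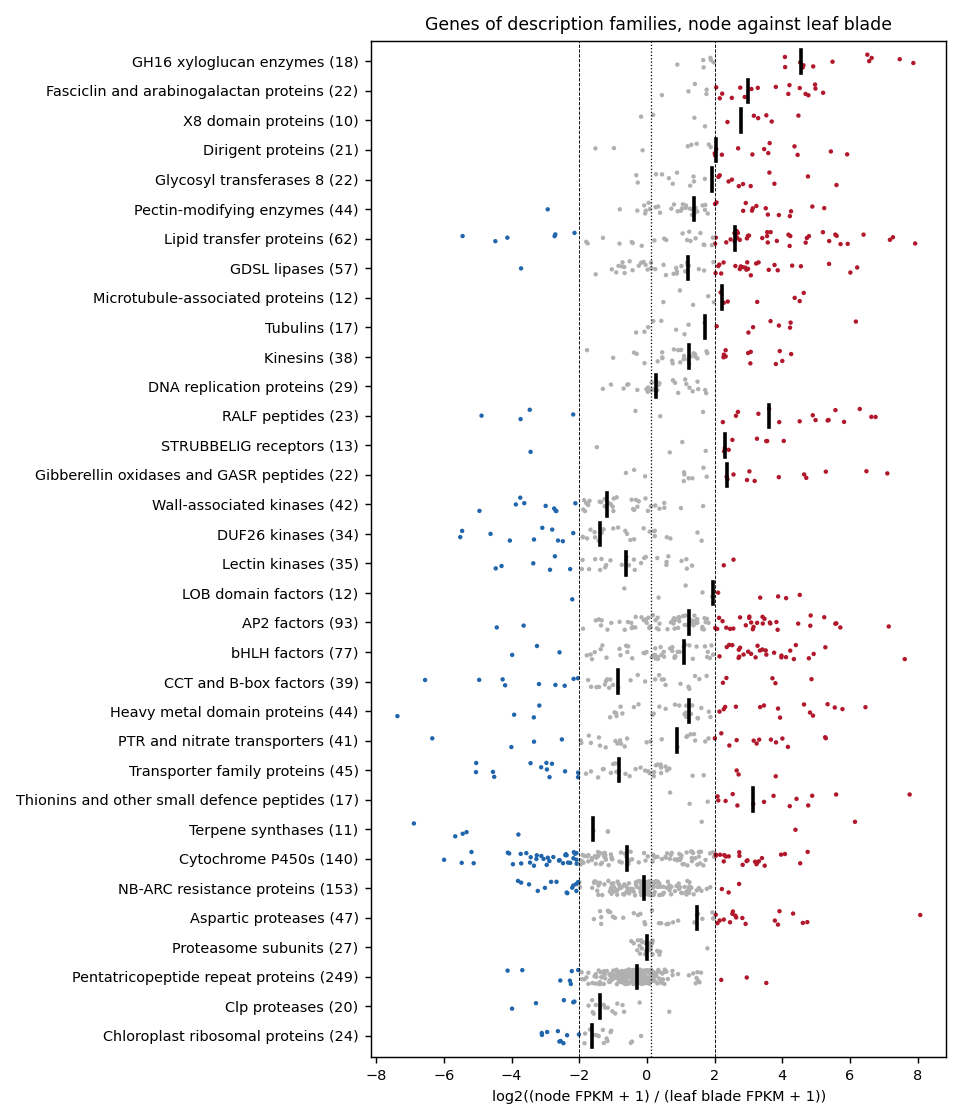
Log2((node FPKM + 1)/(leaf blade FPKM + 1)) of each compared gene (points) in 34 families, with the number of genes in parentheses, 1 library a tissue. Thick bars are family medians, the dotted line is the all-gene median of 0.13 and dashed lines mark 4-fold; by median, GH16 enzymes lie furthest to the right of the families drawn and chloroplast ribosomal proteins furthest to the left.

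Genes for the primary wall were mostly higher in node. Glycosyl hydrolases of family 16, which include the enzymes that cut and rejoin the xyloglucan tethers between cellulose fibrils, had 29 described genes, of which 18 were compared, 12 were higher in node and none was lower. Their median difference was 4.56, and the family summed to 2161 FPKM in node but 45.8 in leaf blade, and to 632 in stem. The most abundant in node, LOC_Os06g48200 (chromosome 6, 29156425 to 29157883), had 760.3 FPKM in node (753 to 768) compared with 2.25 in leaf blade (1.84 to 2.66) and 43.2 in stem, a difference of 7.87. LOC_Os11g33270 had 276 FPKM in node (271 to 281) compared with 0.565 in leaf blade (0.355 to 0.774) and 0.24 in stem, so of the 3 tissues node alone held it in quantity. The member with the most FPKM in leaf blade, LOC_Os08g13920, was itself higher in node and highest in stem, with 380.2 FPKM in node compared with 15.5 in leaf blade and 499.6 in stem.

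Polysaccharide synthases showed the same direction. Of 20 compared cellulose synthase-like genes, 8 were higher in node, with a median of 1.47. CSLA1 (LOC_Os02g09930), described as a mannan synthase, had 81 FPKM in node (79.2 to 82.9) compared with 0.192 in leaf blade (0.104 to 0.28) and 1.75 in stem. CSLF6 (LOC_Os08g06380), whose products are the mixed-linkage beta-glucans of grass walls, had 41.6 FPKM in node (40.3 to 42.9) compared with 0.818 in leaf blade (0.676 to 0.959) and 12 in stem. Glycosyl transferases of family 8, which include makers of pectin and of the side chains of xylan, were higher in 11 of 22 genes, and the largest difference was that of LOC_Os03g47530, with 61.8 FPKM in node compared with 0.295 in leaf blade and 19.6 in stem. In node LOC_Os02g29530 was the most abundant of them, with 72.2 FPKM in node compared with 15.5 in leaf blade and 27.8 in stem. GH9 endoglucanases, which trim beta-glucan chains, were higher in 4 of 13, and LOC_Os03g52630 had 191 FPKM in node compared with 11.4 in leaf blade and 219.6 in stem. Exostosin-domain proteins, among them further glycosyl transferases of the wall, stayed closer to the background, with 2 of 26 higher and 1 lower.

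Proteins held in the wall or anchored at the membrane beside it were also mostly higher. Fasciclin-domain and arabinogalactan proteins, which are heavily glycosylated and lie between membrane and wall, were higher in 17 of 22 compared genes of 34 described, with a median of 2.99 and none lower. LOC_Os05g48900 had 92.1 FPKM in node compared with 1.52 in leaf blade and 114 in stem, and LOC_Os08g23180, the most abundant in node, 98.1 FPKM in node compared with 2.17 in leaf blade and 113 in stem, so both reached their highest level in stem. X8-domain proteins, whose domain binds callose, were higher in 6 of 10, with LOC_Os01g14140 at 23.8 FPKM in node compared with 0.115 in leaf blade and 1.03 in stem. COBRA proteins, which guide cellulose deposition, were higher in 5 of 9, and LOC_Os05g32110 had 166 FPKM in node compared with 6.59 in leaf blade and 151 in stem. Dirigent proteins, which steer the coupling of monolignols, were higher in 13 of 21, and LOC_Os11g07830 had 130.5 FPKM in node compared with 1.18 in leaf blade and 147 in stem while LOC_Os07g44250 had 46.2 FPKM in node compared with 0.0919 in leaf blade and 0.288 in stem. The first of these was as abundant in stem as in node and the second was nearly limited to node.

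Enzymes of pectin and callose included genes of both directions. Pectin-modifying enzymes, which free or cut the homogalacturonan of young walls, were higher in 14 of 44 with 1 lower, and the polygalacturonase LOC_Os01g19170 had 70.3 FPKM in node compared with 1.41 in leaf blade and 1.89 in stem. GH17 glucanases, which degrade callose and related glucans, were higher in 13 of 40 and lower in 4. LOC_Os07g35480 had 133 FPKM in node (130.5 to 135) compared with 0.966 in leaf blade (0.713 to 1.22) and 10.5 in stem and supplied 18.8% of the family's FPKM in node. LOC_Os01g71670 had 8.3 FPKM in node (7.51 to 9.09) compared with 94.1 in leaf blade (91.4 to 96.8) and 27 in stem and supplied 21.4% in leaf blade. Glycine-rich and proline-rich wall proteins had 10 of 57 higher and 2 lower, with LOC_Os02g37480 at 158 FPKM in node compared with 0.0826 in leaf blade and 0.199 in stem and LOC_Os01g06310 at 72.8 FPKM in node compared with 588 in leaf blade and 4.77 in stem. Plastocyanin-like proteins, copper-binding proteins of the cell surface, were higher in 18 of 31 and lower in 3.

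Lipid transfer proteins are small secreted proteins that carry fatty acids and other lipids through the wall, towards cuticle, suberin or the cell surface. Of 143 described LTPL genes 62 were compared, 36 were higher in node and 6 lower, with a median of 2.59. LTPL118 (LOC_Os03g50960) was the most abundant in node with 1022 FPKM in node (1006 to 1038) compared with 86.1 in leaf blade (82.1 to 90.1) and 256 in stem. LTPL104 (LOC_Os05g06780, chromosome 5, 3539563 to 3540972) followed with 976 FPKM in node (963 to 989.5) compared with 5.34 in leaf blade (4.41 to 6.28) and 483 in stem, and LTPL16 (LOC_Os01g60740) had 312 FPKM in node (306 to 319) compared with 0.291 in leaf blade (0.123 to 0.459) and 14.6 in stem. LTPL16 was thus far above its level in either of the other tissues, whereas LTPL104 was also abundant in stem. Of the lower genes the most abundant in leaf blade were LTPL8 (LOC_Os11g02400) with 30.3 FPKM in node (28.5 to 32.1) compared with 545 in leaf blade (538 to 553) and 5.78 in stem and LTPL14 (LOC_Os12g02340) with 8.9 FPKM in node (7.82 to 9.97) compared with 431 in leaf blade (424 to 439) and 6.77 in stem. LTPL8, LTPL13 and LTPL14 lie near the tops of chromosomes 11 and 12, which carry duplicated segments, so reads may have been split between near-identical copies there.

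GDSL lipases, esterases of which some build cutin and some act on wall polysaccharides, were higher in 24 of 57 compared genes and lower in 1, with a median of 1.20. LOC_Os06g50950 had 239 FPKM in node (235 to 243) compared with 2.73 in leaf blade (2.07 to 3.39) and 139 in stem, and LOC_Os06g06250 had 114 FPKM in node (112 to 117) compared with 0.557 in leaf blade (0.35 to 0.764) and 23.3 in stem. The member with the most FPKM in leaf blade, LOC_Os06g06290, differed little, with 106 FPKM in node compared with 168 in leaf blade and 90.2 in stem. Pollen Ole e I and extensin proteins, wall proteins first known from pollen, were higher in 5 of 19 and lower in 1, and POEI49 (LOC_Os07g47750) had 546 FPKM in node compared with 10.5 in leaf blade and 418 in stem.

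The microtubule part of the cytoskeleton differed in the same direction as the wall genes. Tubulins, the subunits of microtubules, were higher in 8 of 17 compared genes, none was lower and the median was 1.70. LOC_Os11g14220, the most abundant tubulin in both tissues, had 1545 FPKM in node (1536 to 1554) compared with 193 in leaf blade (189 to 196) and 1764 in stem, and LOC_Os01g18050 had 121 FPKM in node (119 to 123) compared with 0.696 in leaf blade (0.554 to 0.839) and 79.9 in stem. Kinesins, the motors that move along microtubules, were higher in 11 of 38, and microtubule-associated proteins, which bundle or anchor them, in 7 of 12. The kinesin LOC_Os11g42800 had 62.4 FPKM in node compared with 2.31 in leaf blade and 96.4 in stem and the microtubule-associated protein LOC_Os09g13650 had 21.1 FPKM in node compared with 0.0715 in leaf blade and 6.09 in stem. Actins, myosins and profilins stood near the background, with 3 of 34 higher and none lower, and the actin LOC_Os10g36650 had 112 FPKM in node compared with 6.22 in leaf blade and 20.3 in stem. IQ calmodulin-binding proteins, some of which tie calcium signals to microtubules, were higher in 12 of 25 and lower in 1, with LOC_Os04g48160 at 97 FPKM in node compared with 3.19 in leaf blade and 22.6 in stem.

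Genes of cell division gave an uneven picture. Cyclins, which switch the cell cycle kinases on, were higher in 11 of 38 and lower in none, with LOC_Os04g46660 at 28.2 FPKM in node compared with 0.0569 in leaf blade and 5.23 in stem and LOC_Os05g33040 at 57.7 FPKM in node compared with 8.2 in leaf blade and 23.4 in stem. The 29 compared DNA replication proteins, which copy the genome in S phase, all lay within 4-fold, with a median of 0.28. The most abundant of them, the DNA polymerase subunit POLD4A (LOC_Os09g34850), had 39.4 FPKM in node compared with 31.7 in leaf blade and 26.4 in stem. The cyclin with the most FPKM in leaf blade, LOC_Os07g12780, had 21.5 FPKM in node compared with 69.3 in leaf blade and 11.5 in stem and was within 4-fold.

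Among secreted signals, RALF peptides had a median of 3.61 and members far apart in both directions. RALF peptides are small proteins that raise the pH of the wall and, in Arabidopsis, bind receptor kinases of the CrRLK1L group that watch over wall integrity. Of 39 described genes 23 were compared, 16 were higher in node and 4 lower. RALFL9 (LOC_Os01g15320, chromosome 1, 8577199 to 8577934) had 209.7 FPKM in node (204 to 216) compared with 2.72 in leaf blade (2.06 to 3.39) and 106 in stem, and RALFL34 (LOC_Os04g28830) had 111 FPKM in node (102 to 119) compared with 0.126 in leaf blade (0 to 0.377) and 5.5 in stem. RALFL21 (LOC_Os04g31520) had 107 FPKM in node (102 to 111) and 8.66 in stem, and was listed at 0 in leaf blade. In leaf blade 1 gene dominated, RALFL28 (LOC_Os06g29730, chromosome 6, 17066919 to 17068618), with 50.3 FPKM in node (46.4 to 54.2) compared with 683 in leaf blade (669 to 696) and 30.5 in stem, which was 69.9% of the family's FPKM there and 4.86% in node. RALFL45 (LOC_Os12g11660) and RALFL46 (LOC_Os12g12000), also lower in node, had 11.9 FPKM in node compared with 141 in leaf blade and 16.4 in stem and 3.03 FPKM in node compared with 118 in leaf blade and 20.6 in stem.

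The CrRLK1L receptor kinases differed less than the peptides, with 3 of 11 higher and 1 lower. LOC_Os01g56330 had 25.5 FPKM in node (24.6 to 26.3) compared with 0.843 in leaf blade (0.694 to 0.993) and 2.71 in stem, whereas LOC_Os05g25450, the most abundant in leaf blade, had 20.9 FPKM in node compared with 38.3 in leaf blade and 6.72 in stem and stayed within 4-fold. STRUBBELIG receptors, kinases named for an Arabidopsis gene of cell division planes and organ shape, were higher in 8 of 13 and lower in 1. LOC_Os10g25090 had 17.3 FPKM in node compared with 0.563 in leaf blade and 6.25 in stem and LOC_Os06g42800 had 15.8 FPKM in node compared with 0.459 in leaf blade and 3.15 in stem. The single lower member, LOC_Os04g41310, had 6.43 FPKM in node compared with 79.7 in leaf blade and 18.2 in stem, which was 61% of the family's FPKM in leaf blade, and its locus overlaps another row. MAP kinase kinase kinases, at the top of phosphorylation cascades, were higher in 4 of 19, with the neighbouring LOC_Os01g50370 at 128 FPKM in node compared with 5.05 in leaf blade and 9.43 in stem and LOC_Os01g50400 at 81.4 FPKM in node compared with 3.84 in leaf blade and 5.97 in stem.

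Several large receptor kinase families lay on the leaf blade side. Wall-associated kinases, which bind pectin with their outer part, had 117 described genes and 42 compared; none was higher in node, 9 were lower and the median was -1.17. OsWAK33 (LOC_Os04g21820) had 0.0371 FPKM in node (0.00392 to 0.0703) compared with 31.1 in leaf blade (30.1 to 32) and 0.0269 in stem. The most abundant member in both tissues, LOC_Os09g03620, had 24.9 FPKM in node compared with 53.3 in leaf blade and 35.7 in stem. DUF26 kinases, cysteine-rich receptors linked in Arabidopsis to pathogen and oxidative signals, were higher in none of 34, lower in 10, with a median of -1.38. The neighbouring LOC_Os07g43560 and LOC_Os07g43570 had 2.57 FPKM in node (2.13 to 3.02) compared with 157 in leaf blade (154 to 159) and 8.18 in stem and 1.44 FPKM in node (1.19 to 1.69) compared with 111 in leaf blade (109 to 113) and 12.2 in stem. Lectin kinases, receptors with a sugar-binding outer part, had 2 higher and 6 lower of 35, and LOC_Os03g56160 had 0.759 FPKM in node compared with 38 in leaf blade and 3.81 in stem. Leucine-rich repeat proteins had 8 of 69 higher and 1 lower, a higher share close to the 12.5% of all genes. The described wall-associated kinases together summed to 393 FPKM in leaf blade and 133 in node.

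Among hormone-linked genes, GASR peptides and gibberellin oxidases were higher in 12 of 22 and lower in none. GASR peptides are small cysteine-rich proteins named for their response to gibberellin, and GASR3 (LOC_Os03g55290, chromosome 3, 31464840 to 31465625) had 382 FPKM in node (373 to 391) compared with 1.79 in leaf blade (1.22 to 2.36) and 2.57 in stem. GASR4 (LOC_Os04g39110) had 92.4 FPKM in node (88.2 to 96.6) compared with 0.0433 in leaf blade (0 to 0.164) and 5.44 in stem and GASR7 (LOC_Os06g15620) had 57.3 FPKM in node (54.8 to 59.8) compared with 0.496 in leaf blade (0.274 to 0.718) and 1.66 in stem. All 3 were low in both other tissues, with no stem level above 5.44 FPKM. GH3 enzymes, which attach amino acids to auxin and jasmonate, had 2 of 8 higher. OsGH3.4 (LOC_Os05g42150) had 16.1 FPKM in node compared with 0.0175 in leaf blade and 0.314 in stem. OsGH3.11 (LOC_Os07g47490) had 16.8 FPKM in node compared with 0.892 in leaf blade and 1.63 in stem. Auxin efflux carriers were higher in 5 of 11, and LOC_Os06g12610 had 30.4 FPKM in node compared with 0.334 in leaf blade and 8.71 in stem. ZIM-domain repressors of jasmonate response and lipoxygenases, which start jasmonate synthesis, were split, with 5 higher and 5 lower. The ZIM gene LOC_Os03g08310 had 66.6 FPKM in node compared with 2.13 in leaf blade and 5.48 in stem, while the lipoxygenase LOC_Os02g10120 had 0.55 FPKM in node compared with 64.9 in leaf blade and 0.847 in stem and the 12-oxophytodienoate reductase LOC_Os01g27230 had 0.636 FPKM in node compared with 62.6 in leaf blade and 1.39 in stem.

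Transcription factor families differed in both size and direction. AP2 factors, which include the ethylene response factors, were higher in 30 of 93 and lower in 2, with a median of 1.25. LOC_Os05g29810 (chromosome 5, 17246963 to 17248264) had 261 FPKM in node (256 to 266) compared with 0.851 in leaf blade (0.571 to 1.13) and 24 in stem, and LOC_Os08g36920 had 102 FPKM in node (99.1 to 105) compared with 0.968 in leaf blade (0.672 to 1.26) and 7.06 in stem. On the other side LOC_Os09g11480 had 10.4 FPKM in node (9.31 to 11.5) compared with 246 in leaf blade (241 to 252) and 21 in stem. Basic helix-loop-helix factors were higher in 28 of 77 and lower in 3; LOC_Os03g07540, the most abundant in node, had 195 FPKM in node (175 to 216) and 0.454 in stem, and was listed at 0 in leaf blade. LOC_Os03g08930 had 42.6 FPKM in node (40.6 to 44.6) compared with 0.129 in leaf blade (0.0315 to 0.227) and 5.1 in stem. LOB-domain factors, regulators of organ boundaries, were higher in 5 of 12 and lower in 1, and LOC_Os01g32770 had 95.4 FPKM in node compared with 8.49 in leaf blade and 30.5 in stem.

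bZIP factors were higher in 12 of 45, Dof factors in 4 of 17, GATA factors in 5 of 14 and ZF-HD factors in 3 of 10. The Dof gene LOC_Os08g38220 had 118 FPKM in node compared with 13.9 in leaf blade and 25.2 in stem and the ZF-HD gene LOC_Os09g24810 had 35.7 FPKM in node compared with 0.211 in leaf blade and 0.65 in stem. SBP, TCP, GRF and YABBY factors, regulators of organ growth and identity, were higher in 14 of 46 and lower in 2. The growth-regulating factor LOC_Os04g51190 had 45.3 FPKM in node compared with 1.61 in leaf blade and 28 in stem and OsSPL13 (LOC_Os07g32170) had 62.8 FPKM in node compared with 3.67 in leaf blade and 20.8 in stem, while the TCP gene LOC_Os05g43760 had 0.747 FPKM in node compared with 13.9 in leaf blade and 0.648 in stem. MYB factors, the largest of these families with 153 compared, had 30 higher and 7 lower, with LOC_Os02g40530 at 78.4 FPKM in node compared with 0.341 in leaf blade and 15.9 in stem and LOC_Os06g51260 at 1.19 FPKM in node compared with 35.8 in leaf blade and 0.391 in stem. NAC factors, which act in meristems, in secondary walls and in ageing leaves, had 11 higher and 7 lower of 65, close to the background shares. MADS-box factors had 5 higher and 2 lower of 25 compared; OsMADS15 (LOC_Os07g01820) had 121 FPKM in node compared with 0.542 in leaf blade and 127 in stem and OsMADS32 (LOC_Os01g52680) had 23 FPKM in node compared with 0.233 in leaf blade and 0.341 in stem, whereas OsMADS57 (LOC_Os02g49840), whose locus overlaps another row, had 0.554 FPKM in node compared with 36.2 in leaf blade, and was listed at 0 in stem.

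Of the transcription factor families, CCT and B-box factors had the lowest median, -0.85. They include regulators of light response and of flowering time, and 5 were higher and 9 lower of 39. The B-box gene LOC_Os04g41560 (chromosome 4, 24647901 to 24649396) had 79.4 FPKM in node (76.7 to 82.2) compared with 1470.1 in leaf blade (1458 to 1482) and 129 in stem, and LOC_Os02g08150 had 1.01 FPKM in node (0.752 to 1.27) compared with 188 in leaf blade (185 to 192) and 0.0896 in stem. In the other direction the CCT-motif gene LOC_Os10g32900 had 34.8 FPKM in node (33.2 to 36.5) compared with 0.233 in leaf blade (0.0967 to 0.369) and 2.17 in stem. WRKY factors, known from defence and senescence, had 10 higher and 15 lower of 79, with WRKY2 (LOC_Os10g42850) at 63.8 FPKM in node compared with 0.504 in leaf blade and 2.6 in stem and WRKY62 (LOC_Os09g25070) at 2.28 FPKM in node compared with 148 in leaf blade and 0.138 in stem. VQ proteins, partners of WRKY factors in Arabidopsis, had 3 higher and 4 lower. GRAS, C2H2 zinc finger and B3 factors were higher in 2 of 23, 16 of 101 and 1 of 19 and lower in 1, 5 and 2, and the B3 gene LOC_Os01g52514 had 44.5 FPKM in node compared with 0.129 in leaf blade and 3.55 in stem while the B3 gene LOC_Os01g04800 had 10.1 FPKM in node compared with 108 in leaf blade and 7.86 in stem.

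A list of 19 regulators of branching and internode growth, taken from knowledge of rice mutants, was looked at separately. Of these 17 had a single row, 13 were compared, 6 were higher in node and 1 was lower. OsSPL14 (LOC_Os08g39890), which limits tiller number and strengthens the stem, had 13.7 FPKM in node compared with 1.88 in leaf blade and 2.16 in stem. The carotenoid cleavage dioxygenase 7 gene LOC_Os04g46470, of strigolactone synthesis, had 23 FPKM in node and 15.7 in stem, and was listed at 0 in leaf blade, and its locus overlaps another row. RCN1 (LOC_Os11g05470), a repressor of floral transition, had 7.44 FPKM in node compared with 0.228 in leaf blade and 2.95 in stem. The zinc finger gene ZOS3-06 (LOC_Os03g13400), of tiller angle, had 17.7 FPKM in node compared with 0.0263 in leaf blade and 0.448 in stem, and the cytokinin dehydrogenase LOC_Os01g10110 had 20.3 FPKM in node compared with 0.785 in leaf blade and 4.13 in stem. LOC_Os01g52050, described as a systemin receptor and known in rice as the brassinosteroid receptor, had 16.9 FPKM in node compared with 2.47 in leaf blade and 6.65 in stem. The lower gene, LOC_Os01g40630, known as an enzyme that activates cytokinin, had 37.1 FPKM in node compared with 227 in leaf blade and 15.7 in stem, and its locus overlaps another row. The TCP gene LOC_Os03g49880, a repressor of bud outgrowth, stayed below 1 FPKM in both.

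Transporter families were split, and often a different member led each tissue. PTR and nitrate transporters, which carry peptides, nitrate and some hormones, were higher in 13 of 41 and lower in 4. LOC_Os02g46460 (chromosome 2, 28312589 to 28316198) had 218 FPKM in node (215 to 221) compared with 4.7 in leaf blade (4.28 to 5.11) and 38.7 in stem and supplied 16.3% of the family's FPKM in node and 0.527% in leaf blade. LOC_Os01g37590 (chromosome 1, 21038806 to 21041083) had 0.40 FPKM in node (0.218 to 0.581) compared with 113 in leaf blade (110.4 to 115) and 0.215 in stem and supplied 0.0299% in node and 12.7% in leaf blade. Both are described as peptide transporter PTR2. Amino acid transporters were higher in 13 of 56 and lower in 8; LOC_Os05g37470 led node with 215 FPKM in node compared with 14.3 in leaf blade and 167 in stem and LOC_Os08g03350 led leaf blade with 20.3 FPKM in node compared with 165 in leaf blade and 116 in stem. MATE efflux proteins, which export organic acids and secondary compounds, were 6 higher and 6 lower of 26. LOC_Os05g48040 led them in node with 28.7 FPKM in node compared with 3.37 in leaf blade and 9.02 in stem and LOC_Os07g31884 in leaf blade with 13 FPKM in node compared with 66.9 in leaf blade and 71.6 in stem.

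Potassium transporters and channels had 2 higher and 7 lower of 30. LOC_Os08g36340 had 37.6 FPKM in node (36.4 to 38.7) compared with 0.346 in leaf blade (0.238 to 0.453) and 2.13 in stem and LOC_Os03g37830 had 0.416 FPKM in node (0.302 to 0.53) compared with 120.3 in leaf blade (116 to 125) and 0.178 in stem. Genes described as transporter family protein, a group that includes carriers of sugars, were grouped with 1 sucrose transporter and had 3 higher and 13 lower of 45, with a median of -0.83. LOC_Os07g39350 had 5.25 FPKM in node (4.8 to 5.71) compared with 207 in leaf blade (204 to 209) and 1.05 in stem, and LOC_Os04g38026 in the other direction had 137 FPKM in node compared with 20.9 in leaf blade and 76.5 in stem. The sucrose transporter LOC_Os03g07480 was the most abundant of the group in node and lay within 4-fold, with 139 FPKM in node compared with 104 in leaf blade and 126 in stem. Nodulin MtN21 and MtN3 proteins, of which the MtN3 members are sugar exporters, were higher in 7 of 18 and lower in 2; LOC_Os05g35140 had 87.7 FPKM in leaf blade, and was listed at 0 in node and stem. ABC transporters had 6 higher and 10 lower of 70, with LOC_Os11g39020 at 7.46 FPKM in node compared with 98.5 in leaf blade and 5.04 in stem. Aquaporins, the water channels, were higher in 7 of 22 and lower in 2, with LOC_Os02g44630 at 864 FPKM in node compared with 195 in leaf blade and 482 in stem and LOC_Os01g13130 at 170.5 FPKM in node compared with 8.27 in leaf blade and 398 in stem. On the other side LOC_Os09g36930 had 3.09 FPKM in node (2.6 to 3.58) compared with 1579 in leaf blade (1568 to 1589.6) and 0.122 in stem and supplied 43.5% of the family's FPKM in leaf blade. The family summed to 3434 FPKM in node, close to the 3628 of leaf blade.

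Proton pumps and mitochondrial carriers differed little. Of 23 proton pump genes 1 was higher in node and none lower, and the plasma membrane ATPase LOC_Os04g56160 had 699 FPKM in node compared with 659 in leaf blade and 1613 in stem. Of 45 mitochondrial carriers none was higher and 3 were lower. Heavy-metal domain proteins, small proteins that bind copper and other metals, were higher in 15 of 44 and lower in 4. LOC_Os04g17100 had 1205 FPKM in node compared with 242 in leaf blade and 597 in stem and LOC_Os11g05010 had 109 FPKM in node compared with 0.257 in leaf blade and 11.1 in stem, while LOC_Os01g20830 had 13.6 FPKM in node compared with 147 in leaf blade and 32 in stem.

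Small defence peptides were mostly low in leaf blade. Thionins and defensins, cysteine-rich peptides that damage microbial membranes, had 96 described genes of which only 17 were compared; 14 were higher in node and none was lower. DEF8 (LOC_Os03g03810, chromosome 3, 1714572 to 1715230) had 1556 FPKM in node (1535 to 1576) compared with 31.3 in leaf blade (28.6 to 34.1) and 665 in stem, and DEF7 (LOC_Os02g41904, chromosome 2, 25190484 to 25191221) reached 216 FPKM in node (209 to 223) and 3.62 in stem, and was listed at 0 in leaf blade. DEF8 was thus also abundant in stem, and DEF7 was not. Among the thionins, THION6 (LOC_Os06g32020) had 35.7 FPKM in node (33.4 to 38.1) compared with 0.246 in leaf blade (0.0626 to 0.429) and 0.27 in stem, and 7 further thionin genes of chromosome 6 were higher in node, where near-identical copies may have shared reads. Bowman-Birk inhibitors, which block insect proteases, were higher in 3 of 3 compared genes. Harpin-induced proteins, named for induction by a bacterial protein, were higher in 13 of 34 and lower in 2, and LOC_Os04g33990 had 612 FPKM in node compared with 25.7 in leaf blade and 159 in stem.

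Thaumatins and osmotins, defence proteins of family PR-5, were higher in 9 of 19 and lower in 3. LOC_Os03g14050 had 268 FPKM in node (264 to 271) compared with 21.8 in leaf blade (20.8 to 22.9) and 133 in stem, which was 60.2% of the family's FPKM in node and 2.51% in leaf blade. In leaf blade the osmotin LOC_Os12g38170 supplied 79.8%, with 0.773 FPKM in node (0.504 to 1.04) compared with 694 in leaf blade (686 to 702) and 0.926 in stem. Through this gene the family summed to more in leaf blade, 871 FPKM, than in node, 448. Also lower in node was LOC_Os12g43440, with 1.7 FPKM in node (1.17 to 2.24) compared with 94.7 in leaf blade (90.9 to 98.6) and 4.04 in stem. Chitinases, which digest fungal walls, were higher in 5 of 16 and lower in 1, with CHIT5 (LOC_Os05g33140) at 27.8 FPKM in node compared with 0.0378 in leaf blade and 0.0179 in stem. CHIT2 (LOC_Os04g41620), the most abundant in leaf blade, lay within 4-fold, with 29.7 FPKM in node compared with 109 in leaf blade and 57.1 in stem. Resistance proteins of the NB-ARC class, the intracellular receptors for pathogen effectors, had 341 described genes and 153 compared, and 3 were higher and 14 lower. Their median was -0.09, and LOC_Os11g11960 had 4.68 FPKM in node compared with 73.8 in leaf blade and 0.633 in stem.

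Cytochrome P450s, terpene synthases and UDP-glucosyl transferases were lower in node more often than higher. Of 297 described cytochrome P450s, oxygenases of hormone, terpenoid and phenolic pathways, 140 were compared, 22 were higher and 35 lower, with a median of -0.60. LOC_Os09g36080 had 2.45 FPKM in node (2.1 to 2.81) compared with 125 in leaf blade (122 to 127) and 13.8 in stem and LOC_Os05g01120 had 84.5 FPKM in node (82.6 to 86.4) compared with 2.18 in leaf blade (1.87 to 2.49) and 8.43 in stem. Terpene synthases, which make the skeletons of volatile terpenes, phytoalexins and gibberellins, were higher in 2 and lower in 5 of 11. LOC_Os04g27790 (chromosome 4, 16419959 to 16424898) had 0.171 FPKM in node (0.0795 to 0.262) compared with 138 in leaf blade (135 to 140.3) and 0.607 in stem and supplied 43.9% of the family's FPKM in leaf blade. In node LOC_Os02g17780 (chromosome 2, 10273718 to 10283727), described as ent-kaurene synthase, supplied 84.3%, with 137 FPKM in node (134 to 140.1) compared with 0.95 in leaf blade (0.784 to 1.12) and 12 in stem. The second higher gene, LOC_Os03g31430, reached its highest level in stem, with 21 FPKM in node compared with 0.0493 in leaf blade and 67 in stem.

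UDP-glucosyl transferases, which attach glucose to hormones and phenolics, had 7 higher and 14 lower of 93. Glutathione S-transferases, which tag compounds for the vacuole, had 10 higher and 6 lower, and LOC_Os03g04220 had 29.6 FPKM in node compared with 0.0181 in leaf blade and 2.0 in stem while LOC_Os01g72170 had 11.2 FPKM in node compared with 86.6 in leaf blade and 16.9 in stem. Flavonoid enzymes had 5 higher and 3 lower of 26; LOC_Os03g03034, described as a flavonol synthase or flavanone hydroxylase, had 397 FPKM in node compared with 40.6 in leaf blade and 83.7 in stem.

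Each of the 4 protease families below had more genes higher in node than lower, as did all genes together, with 12.5% higher and 7.46% lower. Aspartic proteases were higher in 18 of 47 and lower in none. LOC_Os09g30414, described as a nepenthesin-2 precursor, had 269 FPKM in node (265 to 272), and was listed at 0 in leaf blade and stem, but its locus overlaps another row. LOC_Os04g45270 had 46.2 FPKM in node (44.4 to 48) compared with 0.939 in leaf blade (0.744 to 1.13) and 29.5 in stem. Subtilases, secreted serine proteases that process peptides and wall enzymes, were higher in 6 of 30 and lower in 1, with OsSub31 (LOC_Os03g55350) at 40.4 FPKM in node compared with 0.348 in leaf blade and 0.245 in stem. Serine carboxypeptidases had 9 higher and 5 lower of 27, or 33.3% and 18.5%, both above the shares of all genes. Among cysteine proteases, both genes described as xylem cysteine proteinase 2, which act in the death of xylem vessels, were higher in node, LOC_Os05g01810 with 23.7 FPKM in node (22.4 to 25) compared with 0.145 in leaf blade (0.0484 to 0.242) and 1.13 in stem and LOC_Os01g73980, which had 19.4 FPKM in node (18.3 to 20.6) and 0.605 in stem, and was listed at 0 in leaf blade. The cysteine protease with the most FPKM in both tissues, LOC_Os02g27030, had 510.3 FPKM in node compared with 566 in leaf blade and 479 in stem.

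In sugar and redox metabolism single genes stood far apart. Trehalose enzymes, whose product trehalose 6-phosphate reports sucrose supply, were higher in 5 of 10 and lower in none, and the trehalose-6-phosphate synthase LOC_Os02g54820 had 165 FPKM in node compared with 15.5 in leaf blade and 60.5 in stem. Sucrose synthases and invertases, which split sucrose, were higher in 1 of 11 and lower in 2. The higher gene, the sucrose synthase LOC_Os03g28330, supplied 50% of the family's FPKM in node, with 499 FPKM in node (495 to 503) compared with 2.63 in leaf blade (2.36 to 2.9) and 109.6 in stem. Both lower genes were neutral or alkaline invertases, LOC_Os01g22900 with 25.2 FPKM in node compared with 117 in leaf blade and 10.4 in stem and LOC_Os04g35280 with 0.0406 FPKM in node compared with 50.9 in leaf blade and 0.0184 in stem. Glutaredoxins and thioredoxins, small proteins that reset disulfide bonds, had 7 higher and 9 lower of 66. The glutaredoxin OsGrx_C17 (LOC_Os11g43520, chromosome 11, 26269974 to 26270588) had 366 FPKM in node (357 to 376) compared with 1.2 in leaf blade (0.686 to 1.7) and 74.3 in stem, and OsGrx_C11 (LOC_Os12g35340) had 70.6 FPKM in node (66.6 to 74.5) compared with 1.95 in leaf blade (1.49 to 2.42) and 11.2 in stem. The thioredoxin LOC_Os07g29410 (chromosome 7, 17268665 to 17270113) had 8.31 FPKM in node (7.55 to 9.06) compared with 809.5 in leaf blade (802 to 817) and 32.1 in stem. Split by description after these values had been seen, the 35 glutaredoxins had 7 higher and 2 lower, and the other 31 genes, mostly thioredoxins, had none higher and 7 lower. Annexins, calcium-dependent membrane binders, were higher in 4 of 11 and lower in 1, and LOC_Os02g51750 had 232 FPKM in node compared with 11.8 in leaf blade and 48.4 in stem. Universal stress proteins were higher in 7 of 18 and lower in 1.

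Several families of basic cell function had few genes beyond 4-fold. The 27 compared proteasome subunits, which degrade tagged proteins, had a median of -0.00 and a range from -0.46 to 1.79. Cytosolic ribosomal proteins were higher in 1 and lower in 10 of 231, translation factors in 2 and 3 of 60, and WD repeat proteins in 2 and 1 of 100. F-box proteins, which choose targets for ubiquitin, had 694 described genes and 319 compared, with 17 higher and 4 lower. The most abundant F-box gene in node, LOC_Os01g65920, had 221 FPKM in node compared with 40.8 in leaf blade and 93.6 in stem. RING and U-box ubiquitin ligases were closer to the background, with 34 higher and 12 lower of 241, and LOC_Os02g34410 had 73.2 FPKM in node compared with 0.856 in leaf blade and 10.2 in stem. Ras-related GTPases, which direct vesicles to the wall and vacuole, differed more often. They were higher in 10 of 44, or 22.7%, where all genes had 12.5%, and lower in 1. LOC_Os08g41340 had 147 FPKM in node compared with 8.28 in leaf blade and 37.5 in stem.

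Families for the upkeep of the plastid, outside photosynthesis itself, had medians on the leaf blade side, though not every member did. They are given here for comparison with the 35 of 40 light harvesting and photosystem genes that were lower in node. Chloroplast ribosomal proteins were lower in 9 of 24, with a median of -1.61. Of these genes 15, with 7 of the lower ones, are described by the names of proteins that plants encode in the plastid genome, and several lie in runs on chromosomes 8 and 10 among photosystem loci of the same kind. Reads of plastid transcripts cannot be told apart from reads of such copies, so these 15 genes, which summed to 9.91 FPKM in node and 108 in leaf blade, cannot be taken as nuclear expression, and some of the photosystem and Clp loci share this limit. The other 9 genes, most of them described as chloroplast precursors, had 2 lower and a median of -1.48. PAP fibrillins, which coat lipid droplets of the plastid, were lower in 5 of 8, and LOC_Os11g38260 had 1.4 FPKM in node compared with 92.3 in leaf blade and 2.32 in stem. Clp proteases were lower in 5 of 20, with OsClp3 (LOC_Os02g42290) at 60.2 FPKM in node compared with 594 in leaf blade and 213 in stem. FKBP isomerases, grouped with the plastid families, had 2 higher and 6 lower of 17, with a median of -1.29. Their sum was 1210 FPKM in node and 1126 in leaf blade. Pentatricopeptide repeat proteins, which edit and process organelle RNA, were lower in only 7 and higher in 3 of 249, with a median of -0.30. Transposable element genes reached 1 FPKM in only 645 of 15550 described, 63 higher and 42 lower. Genes without a specific description numbered 5105, of which 573 were higher and 357 lower, close to the shares of all genes.

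**Figure D3:**
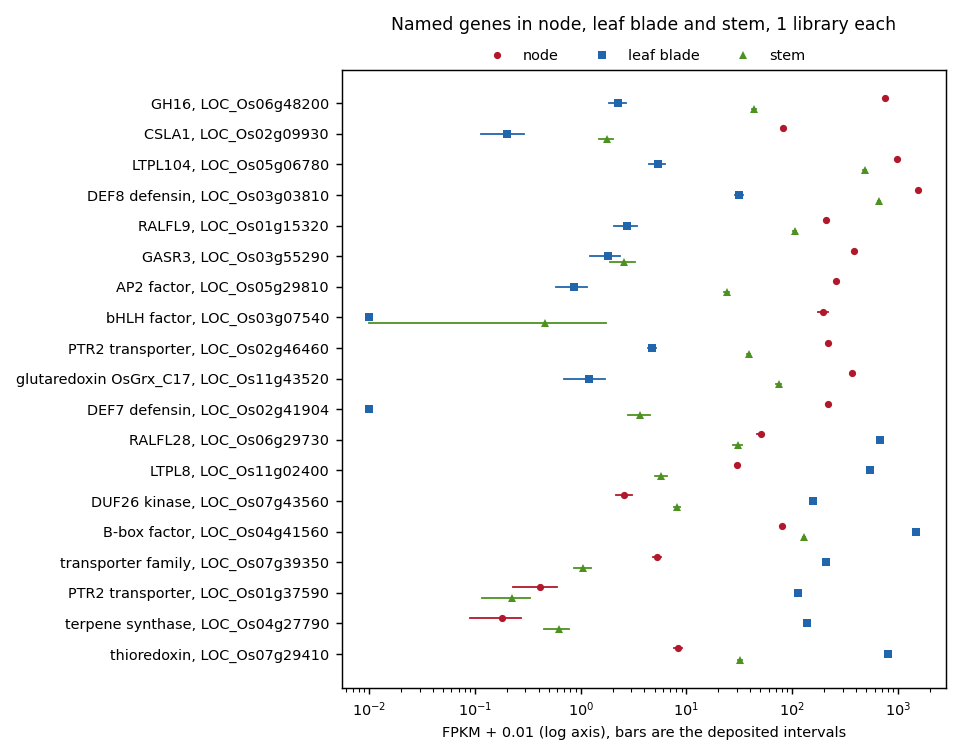
Level in node (circles), leaf blade (squares) and stem (triangles) of 19 genes named in the text, as FPKM + 0.01 on a log axis, 1 library each; bars are the deposited intervals and values at 0.01 are listed at 0. The upper 11 genes have their highest value in node and the lower 8 in leaf blade, with no interval of node reaching one of leaf blade.

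The member with the most FPKM often differed between the tissues. Of 117 families with at least 10 compared genes, 34 had the same leading gene in node and leaf blade and 83 had different ones. In 13 of these the gene that led in node was at least 4-fold higher there and the gene that led in leaf blade at least 4-fold lower. Leaders were picked by their level in the same tissue, which by itself favours these directions. The number that such a choice alone would give was not computed. Among calcium-dependent kinases, LOC_Os02g41580 led in node with 195 FPKM in node compared with 31.1 in leaf blade and 92.9 in stem and LOC_Os01g18800 in leaf blade with 15.7 FPKM in node compared with 177 in leaf blade and 12.2 in stem. Among the 13 families the highest share was 84.3%, that of LOC_Os02g17780, described as ent-kaurene synthase, among terpene synthases in node. The same gene supplied 0.302% in leaf blade.

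**Figure D4:**
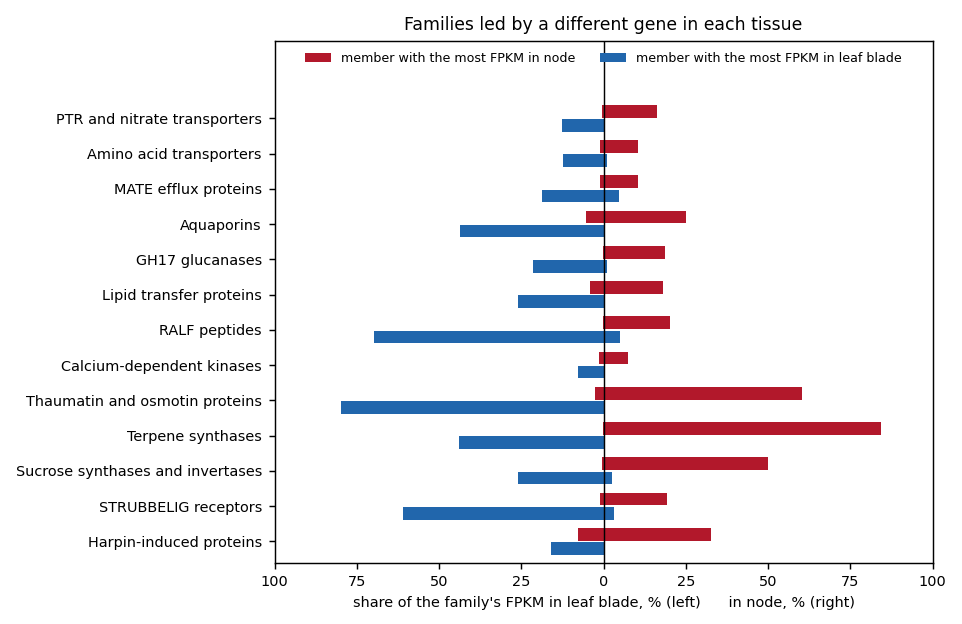
Share of a family's summed FPKM supplied by the gene that led it in node and by the gene that led it in leaf blade, for the 13 families in which both leaders differed by 4-fold or more in opposite directions. Bars to the right are shares in node and bars to the left shares in leaf blade, in %; for RALF peptides the leaf blade leader supplied 69.9% in leaf blade and 4.86% in node.

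Members of 1 family that lie close together on a chromosome were compared as pairs, and these pairs were chosen after their values had been seen. There were 521 pairs of neighbouring genes of the same family within 50 kb, and in 269 of them at least 1 gene was beyond 4-fold. Both genes were higher in 68 pairs, both lower in 30, and in 159 a single gene was beyond 4-fold. In 12 pairs the genes differed in opposite directions. Across all genes 12.5% were higher and 7.46% lower, so some opposite pairs would arise in any pairing of genes. Whether 12 is more than that was not tested, and the pairs below are described singly. On chromosome 11, LTPL25 (LOC_Os11g02350, 684611 to 685626) had 55.4 FPKM in node (52.8 to 58) compared with 0.16 in leaf blade (0.0236 to 0.296) and 1.9 in stem, against the opposite order for LTPL8, 29774 bases away. On chromosome 12, LTPL26 (LOC_Os12g02300, 727800 to 728701) had 29 FPKM in node (26.9 to 31.1) compared with 0.0876 in leaf blade (0 to 0.199) and 1.63 in stem, and LTPL13 (LOC_Os12g02330, 746155 to 747300) had 8.64 FPKM in node (7.68 to 9.6) compared with 214 in leaf blade (209.8 to 219) and 4.57 in stem. The same arrangement was thus listed in both of these duplicated segments. Reads may have been split between their copies, so these pairs do not count as independent.

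Further opposite pairs were the GDSL lipases LOC_Os01g11620 (chromosome 1, 6267297 to 6270903) with 60.2 FPKM in node (57.9 to 62.6) compared with 0.471 in leaf blade (0.252 to 0.691) and 36.1 in stem and LOC_Os01g11650 with 7.17 FPKM in node (6.53 to 7.8) compared with 107 in leaf blade (104 to 109) and 59 in stem, 7590 bases apart. The osmotin LOC_Os12g38150 had 21.5 FPKM in node (20.1 to 22.8) compared with 1.11 in leaf blade (0.809 to 1.41) and 2.09 in stem, 6577 bases from LOC_Os12g38170, the osmotin most abundant in leaf blade. The P450 genes LOC_Os07g44130 and LOC_Os07g44140, both described as P450 72A1 and 4941 bases apart, had 0.755 FPKM in node compared with 22.1 in leaf blade and 4.56 in stem and 10.3 FPKM in node compared with 0.47 in leaf blade and 8.61 in stem. Of the hydroquinone glucosyltransferases LOC_Os01g43280 and LOC_Os01g43270, the former had 3.86 FPKM in node compared with 0.0224 in leaf blade and 0.148 in stem, and the latter had 0.069 FPKM in node compared with 41 in leaf blade, and was listed at 0 in stem. Reads of near-identical neighbours cannot always be told apart, so the separate values of such pairs are uncertain.

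**Figure D5:**
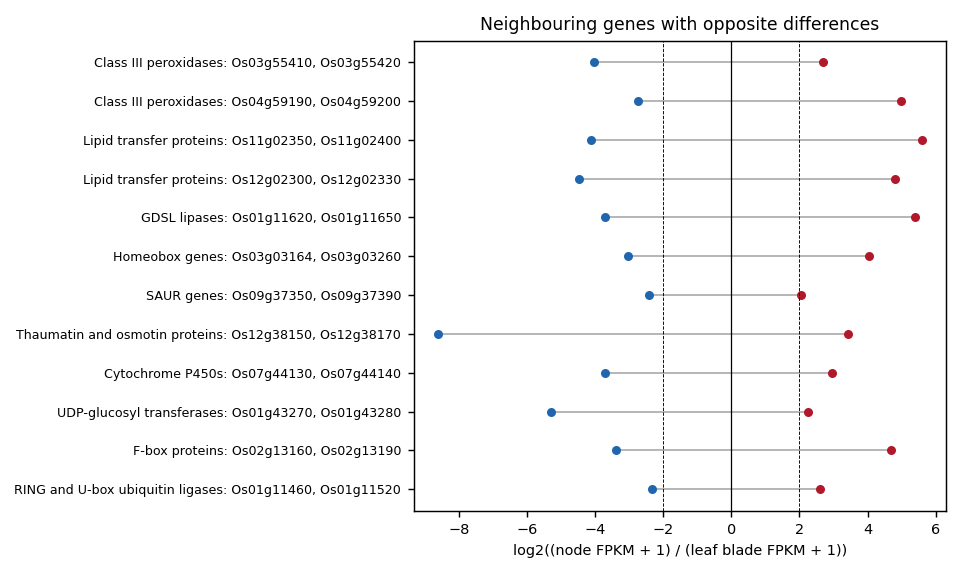
Log2((node FPKM + 1)/(leaf blade FPKM + 1)) of both genes of each of the 12 neighbouring pairs of a family, within 50 kb, whose members differed by 4-fold or more in opposite directions, 1 library a tissue. Each line joins a pair, and each pair has 1 gene at 2 or more and 1 at -2 or less, such as LTPL25 and LTPL8 on chromosome 11.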

How the data were processed

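Total RNA of 1 leaf blade, 1 node and 1 stem library of rice was sequenced with paired ends by the authors. The submitters' processing notes name TopHat. Not given in the sources used here are its version, the quantifying tool, the genome build and the annotation. For each library, the authors deposited a gene table with FPKM and the interval FPKM_conf_lo to FPKM_conf_hi, per the file headers. Start coordinates are printed with 1 added, since the deposited starts were inferred to count from 0.

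Genes whose row held 1 identifier, present once in the node table and once in the leaf blade table, and at 1 FPKM or more in either were compared as log2((node FPKM + 1)/(leaf blade FPKM + 1)) and called at 4-fold, without a test. Fragment numbers were derived from the width of the deposited intervals, on the assumption that these hold counting error alone. Families were taken from the description column by text patterns. Members and lists were chosen with earlier results of these data known, and some families and patterns were added or corrected after values had been seen. Up to 4 genes a family and direction were named by the largest difference at 10 FPKM or more, with the most abundant gene in each tissue, the 15 highest and 15 lowest described genes, and the marker and branching genes; genes of the neighbouring pairs lie partly outside this rule. The call rule was run on simulated tables made from the node values with counting noise alone. The planted differences were 8-fold and the genes were at 10 FPKM or more. That run therefore says nothing about lower genes, smaller differences or variation between plants. Alternatives changed the pseudocount, filter, scaling, fold and treatment of overlapping loci. Python 3.11.15, numpy 2.4.6, pandas 2.3.3 and matplotlib 3.10.9 were used. No sequences are printed.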

Additional observations from a re-analysis of the deposited data

Results flagged for a closer look

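Rows that join several gene identifiers lay outside the comparison and also held differences between the tissues. Of 629 such rows matched in both tables at 1 FPKM or more, 35 (5.56%) were at least 4-fold higher in node and 46 (7.31%) at least 4-fold lower, with a median difference of 0.01. The value of a joined row cannot be assigned to a single gene, so these rows enter no family count.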

How the results depend on the processing

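The counts of 2517 higher and 1497 lower genes depended most on how low levels were treated and on the fold. A pseudocount of 0.1 FPKM gave 3963 and 2294, and a pseudocount of 5 FPKM 1103 and 691, since the added value sets how far a low gene can differ. At 8-fold the counts were 1246 and 667. Under the other alternatives the higher count ranged from 2234 to 2668 and the lower from 1235 to 1624, and higher genes made up 60.5% to 65.1% of all calls under every setting, the main one at 62.7%. Rescaling without the 50 most abundant genes moved the median of all genes from 0.13 to 0.05.

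Of 59 family medians of 1 or more in size, 1 changed sign under an alternative, that of the cysteine proteases, from 1.14 to -0.15 with no filter on low values. Of 603 genes open to naming and beyond 4-fold, 140 came under 4-fold in at least 1 alternative, 126 of them with a pseudocount of 5 FPKM, 29 with shares of the fragment numbers implied by the intervals and 1 with rescaling. LOC_Os08g13870 and LOC_Os11g41210, of the lectin kinase and NB-ARC families, reversed under those fragment shares, to 0.2 and -1.48; the cause was not tested. No paired analysis was possible because each tissue had 1 library. Depth limits how well the lowest genes are measured. Apart from that, shares of implied fragments ordered the tissues the other way for 10 of 2131 higher genes above 0 in both tissues. The same held for 10 of 1271 such lower genes, and the cause was not tested.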
